A study of Homo sapiens with 16 samples.

Results

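THP-1 macrophages that were stimulated while sharing their medium with mesenchymal stem cells were compared with resting macrophages that received neither treatment. The comparison took 8 of the 16 RNA sequencing libraries of the series, chosen by their labels, 4 of M0+LPS+IFN-γ+iMSCs and 4 of M0. THP-1 is a human monocytic leukaemia cell line, so all libraries share 1 genotype, and the labels give the cell type as monocyte. The cells of every group were first turned into M0 macrophages with the phorbol ester PMA at 100 ng/mL for 48 hours. The stimulated co-culture (M0+LPS+IFN-γ+iMSCs) was then given interferon-gamma (IFN-γ) at 20 ng/mL for 48 hours, together with 100 ng/mL of lipopolysaccharide (LPS) from Porphyromonas gingivalis, a bacterium of the mouth. Mesenchymal stem cells (iMSCs) that had been made from induced pluripotent cells sat above these macrophages in Transwell inserts, which let soluble factors through. Stimulation alone (M0+LPS+IFN-γ) and co-culture alone (M0+iMSCs), with 4 libraries each, show which way each treatment alone moved a gene. Resting M0 macrophages received PMA only. The labels state 48 hours of treatment after PMA for the other groups and no such time for M0. Whether time in culture was equal is therefore not known. The count columns of the co-culture groups carry the letters CM, which the labels do not explain. The question was how far macrophages that had met both treatments lay from the resting state.

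LPS is sensed at the cell surface by TLR4 with CD14 and MD-2, and the signal runs through NF-kB and MAP kinases to cytokine and chemokine genes. IFN-γ acts through IRF1 and other transcription factors on guanylate-binding proteins, antigen presentation genes and chemokines such as CXCL9 and CXCL10. The pair of agents is a standard way to drive macrophages into the inflammatory state called M1. Mesenchymal stem cells release prostaglandin E2, IL-6, the enzyme products of IDO1 and other soluble factors that are known to dampen inflammatory macrophages.

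Library totals ran from 18200706 to 23227097 counts in stimulated co-culture and from 20338546 to 24149246 in M0, and 15301 of 60664 genes held enough counts to be tested. Values are CPM, counts scaled to library size with TMM factors, and these factors averaged 1.14 in stimulated co-culture and 0.984 in M0. Among 4812 well-expressed genes, at most 5 in any library of the 2 groups lay 2-fold from the other 3 libraries of its group. Replicate 4 of stimulation alone stood apart, with 211 such genes, and 61 of the 200 genes named lay at least 2-fold beyond the other 3 libraries there. Counts of genes and of list members that rest on stimulation alone are therefore also given without it, while means under stimulation alone include it. Macrophage markers were present, with 12 of 13 above 1 CPM in both groups, while CD68 had 9 counts over the stimulated co-culture libraries and 17 over the M0 libraries. Summed over the 13 markers, the level was 7889 to 8121 CPM in stimulated co-culture and 4062 to 4290 CPM in M0, and the monocyte marker CD14 was part of that difference (1969, 1849, 1882 and 1895 CPM against 132, 125, 125 and 125 CPM). LAPTM5 was the largest part of both sums, at means of 2754 and 1816 CPM. ITGAM, ITGAX and CEBPB went the other way, at means of 92.5, 149 and 101 CPM in stimulated co-culture against 196, 514 and 256 CPM in M0. Of 10 mesenchymal markers, 6 passed 1 CPM in stimulated co-culture and 4 in M0, with sums of 88.6 to 99.4 CPM and 96.5 to 103.9 CPM. PDGFRA carried most of both sums, at means of 60.5 and 80.8 CPM, and was called lower in a fit of only the 8 libraries compared (log2 fold change -0.43) and without replicate 4 of stimulation alone (-0.42) but not in the fit of all 16 libraries (-0.42, adjusted p = 0.2). Within the list COL1A2 and POSTN had 0 counts in both groups, while COL1A1 had 844 counts over the stimulated co-culture libraries and 143 over the M0 libraries, and DCN had 1772 and 0. The 4 pluripotency markers summed to at most 0.0408 CPM in stimulated co-culture and 0.0419 CPM in M0, with POU5F1 and SOX2 at 0. Whether the replicates were separate cultures is not said in the labels, so every p-value reflects only how far these libraries differ from each other, a spread that may be technical.

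Stimulated co-culture differed from M0 in most of the transcriptome. Of the 15301 genes tested with edgeR's quasi-likelihood test, 11840 (77.4%) had an adjusted p under 0.05, 6061 (39.6%) of them higher and 5779 (37.8%) lower in stimulated co-culture. At least 2-fold changes numbered 3228 higher (21.1%) and 2451 lower (16%), and in 11700 genes (76.5%) the libraries of the groups did not overlap. A gene's being called is therefore the rule here, and the size and direction carry the description. Counts of list members below are to be read beside the 39.6% higher and 37.8% lower of all genes tested. The balance of directions depends on the scaling. With TMM factors 51.2% of the called genes were higher, and with library totals alone 62.5% were, 7391 higher against 4437 lower. Library totals moved the median log2 fold change of all genes to 0.24, from 0.02 with TMM. In bulk RNA, fewer cells of a type and less RNA per cell cannot be told apart.

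Among genes with a mean log2 CPM of at least 3 and no overlap between the groups, the 8 largest rises of M0+LPS+IFN-γ+iMSCs over M0 were of interferon-induced genes, calcium-binding S100 proteins and 1 proliferation gene. GBP5, a guanylate-binding protein of cell-autonomous defence, had 123, 74.7, 73.8 and 157 CPM in stimulated co-culture against 0.0498, 0.150, 0.126 and 0.0968 CPM in M0, a log2 fold change of 9.90 ± 0.402 (SE). S100A8, a subunit of the neutrophil and monocyte alarmin calprotectin, had 1956, 2207, 1988 and 3107 CPM against 2.44, 2.75, 2.01 and 3.00 CPM, a log2 fold change of 9.83 ± 0.310. MKI67, the gene of the proliferation marker Ki-67, had 157, 165, 160.4 and 97.7 CPM against 1.79, 2.35, 2.26 and 1.98 CPM, a log2 fold change of 6.11 ± 0.290. That the groups did not overlap for these 3 genes follows from the limits used, and 76.5% of all genes tested did not overlap either. GBP1, GBP2 and GBP4, the antiviral factor TRIM22 and S100A9, the partner of S100A8, completed the 8, with log2 fold changes from 6.23 to 8.29.

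The 8 largest falls were taken by the same limits. MMP10, a matrix metalloproteinase that cleaves proteoglycans, had 0.0919, 0.122, 0.113 and 0.146 CPM in stimulated co-culture against 96.7, 109, 99.1 and 97.7 CPM in M0, a log2 fold change of -9.67 ± 0.746. INHBA, the subunit of activin A, had 8.87, 5.51, 5.52 and 9.34 CPM against 922, 926, 995 and 1014 CPM, a log2 fold change of -7.05 ± 0.528. OCSTAMP, needed for fusion of osteoclast precursors in mice, had 0.368, 0.122, 0.0375 and 0.146 CPM against 137, 129, 132 and 127 CPM, a log2 fold change of -9.62 ± 0.608. MMP10 and OCSTAMP were close to absent and INHBA low in all 4 stimulated co-culture libraries, and all 3 were abundant in all 4 M0 libraries. CEMIP, a hyaluronan-degrading protein, the adhesion protein gene MDGA1, the glycoprotein hormone gene STC1, the metalloproteinase MMP3 and the cytokine LIF were the other 5, with log2 fold changes between -8.23 and -6.94.

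**Figure D1:**
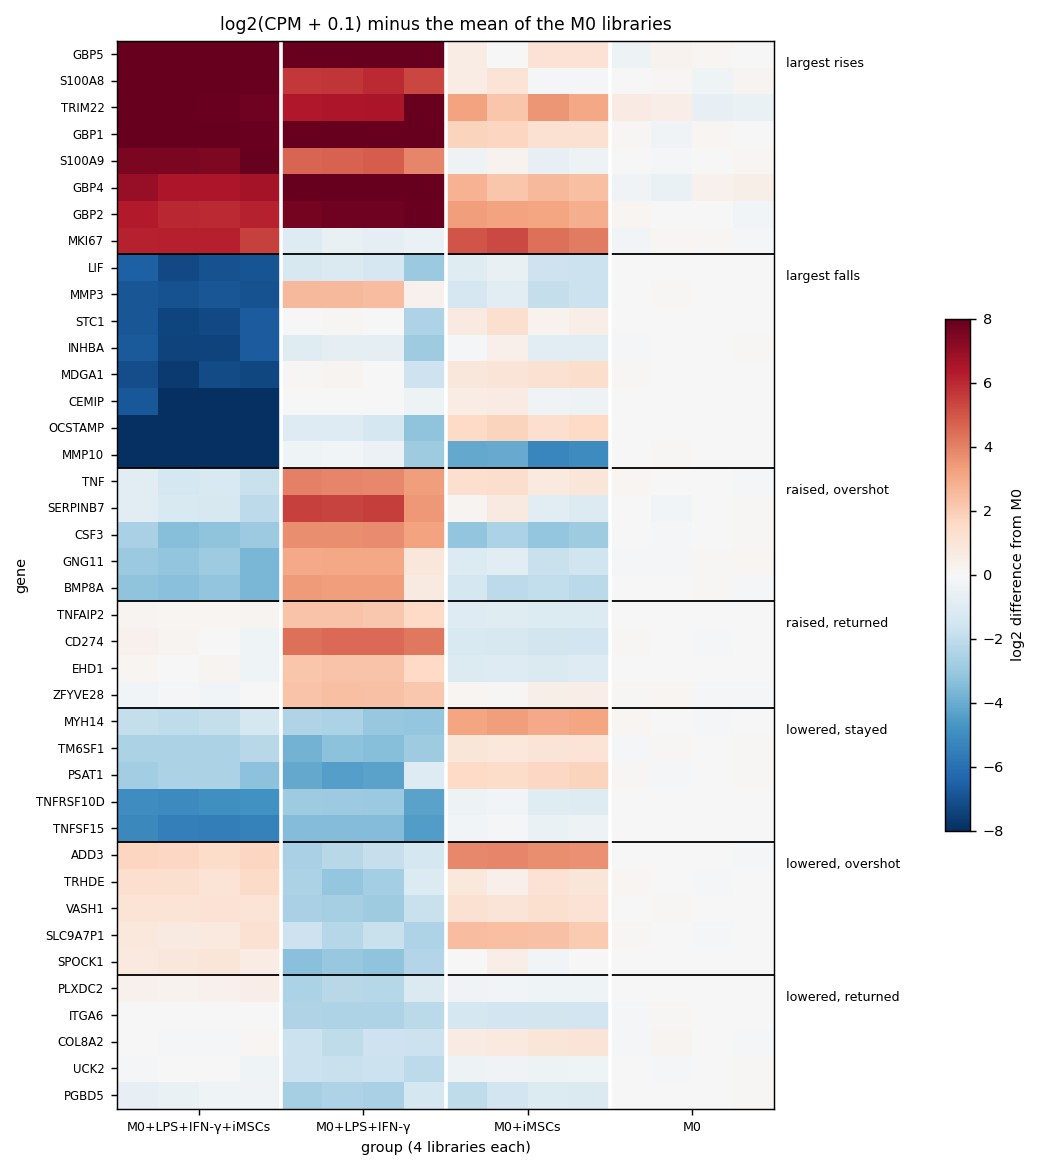
Heat map of log2(CPM + 0.1) minus the mean of the 4 M0 libraries for the genes with the largest net changes at a mean log2 CPM of at least 3 and for those that lead each class of net state. Rows are genes, columns are the 16 libraries by group, red is above and blue below M0. The largest rises, which include the 5 leading genes that stayed induced (GBP1, GBP2, GBP4, GBP5 and TRIM22), are red in all 4 libraries of M0+LPS+IFN-γ+iMSCs, the largest falls are blue in all 4, and the rows marked returned are near white there while coloured under M0+LPS+IFN-γ. These colours follow from how the rows were chosen.

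Genes that stimulation alone had moved were then sorted by where they stood in stimulated co-culture. Stimulation alone raised 1406 genes at least 2-fold over M0 (9.19% of those tested) and lowered 1272 (8.31%). A raised gene was said to have stayed induced when it was called at least 2-fold above M0 in stimulated co-culture, and to have overshot when it was called below M0. It was said to have returned when it was not called and the 95% interval of its log2 fold change lay between -1 and 1. Of the 1406 raised genes, 853 (60.7%) stayed induced, 149 (10.6%) were above M0 by less than 2-fold, 100 (7.11%) returned, 208 (14.8%) overshot and 96 (6.83%) were undetermined. Those that stayed had a median log2 fold change over M0 of 2.60 in stimulated co-culture and 1.82 under stimulation alone, and 596 of them were above their level under stimulation alone. The class was chosen by its level in stimulated co-culture, and over all 1406 raised genes the medians were 1.55 and 1.65. In co-culture alone the median log2 fold change over M0 was 0.93 for genes that stayed, -0.20 for those that returned and -0.48 for those that overshot. The class names therefore describe a level, and what each treatment contributed to it was not tested. Of the overshooting genes 158 were at least 2-fold below M0, with a class median of -1.66. The 2 contrasts share the M0 libraries, so these counts describe where genes stood and are no test of a reversal.

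Among the 1272 lowered genes, 663 (52.1%) stayed at least 2-fold below M0 in stimulated co-culture, with a median log2 fold change of -2.56. A further 191 (15.0%) were below M0 by less than 2-fold, 168 (13.2%) returned, 185 (14.5%) were called above M0 and 65 (5.11%) were undetermined. Of those called above M0, 111 were at least 2-fold above it. Without replicate 4 of stimulation alone, 1353 genes were raised and 1369 lowered. Of those raised, 743 stayed induced, 703 of them the same genes, 100 returned, 75 of them the same, and 274 overshot, 200 of them the same. Of those lowered, 657 stayed, 170 returned and 266 overshot. With library totals in place of TMM factors 51 raised genes returned and 126 overshot, while 326 lowered genes returned and 460 were called above M0.

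**Figure D2:**
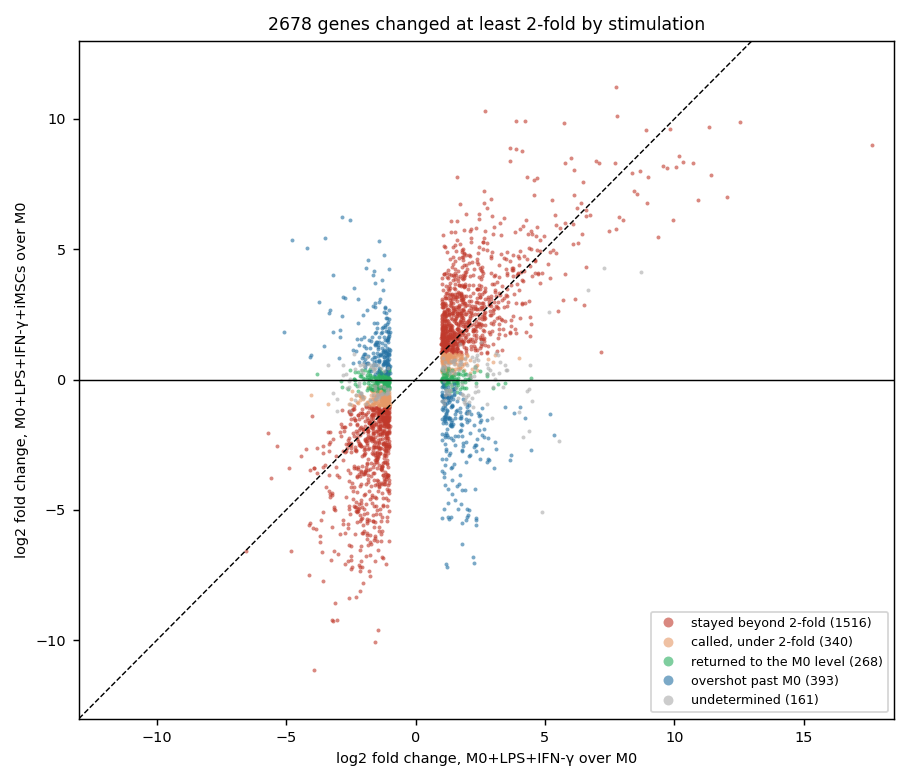
Log2 fold change of M0+LPS+IFN-γ+iMSCs over M0 (vertical axis) against that of M0+LPS+IFN-γ over M0 (horizontal axis), each point 1 of the 2678 genes that stimulation alone moved at least 2-fold. Both axes share the M0 libraries, the dashed line marks equal change and the solid line the M0 level. By definition, red points (genes that stayed beyond 2-fold) lie on the same side of the M0 level as under stimulation alone. Blue points (genes that overshot) lie on the other side, also by definition. Values of genes with almost no counts in M0 depend on the prior count.

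Genes of the IFN-γ response mostly stayed above the resting level. Of 29 tested genes of the IFN-γ response 25 were higher and 3 lower in stimulated co-culture than in M0, where 39.6% of all genes tested were higher and 37.8% lower. Their median log2 fold change was 2.72, beside 0.02 over all genes. Stimulation alone had raised 25 of the 29, of which 20 stayed induced, 3 were above M0 by less than 2-fold, 1 returned and 1 overshot. Without replicate 4 of stimulation alone 26 were raised, of which 20 stayed, 3 were above M0 by less than 2-fold, 1 returned and 2 overshot. GBP1 had 436, 326, 311 and 292 CPM in stimulated co-culture against 1.2, 0.902, 1.30 and 1.16 CPM in M0, with a mean of 876 CPM under stimulation alone. Its log2 fold change over M0 was 8.21 ± 0.216 (adjusted p = 3.12e-14). The level thus stayed far above M0 and below stimulation alone, where the log2 fold change over M0 was 9.57. GBP2, GBP3, GBP4 and GBP5 lay in the same order, with log2 fold changes over M0 of 6.23, 3.88, 6.77 and 9.90 in stimulated co-culture and 7.85, 5.18, 8.93 and 12.52 under stimulation alone. The GBP genes are close paralogs, and how shared reads were counted is not given.

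IRF1, a transcription factor induced by interferon, had 125, 97.0, 98.4 and 98 CPM in stimulated co-culture against 56.6, 55.0, 53.2 and 54.3 CPM in M0, and averaged 461 CPM under stimulation alone. Its libraries did not overlap, yet the log2 fold change of 0.93 ± 0.0711 (adjusted p = 1.84e-09) was under 2-fold. CXCL10, a chemokine for T cells, had 27, 13.1, 13.4 and 11.0 CPM against 0.149, 0.200, 0.126 and 0.0484 CPM in M0, where stimulation alone gave a mean of 261 CPM. CXCL9, its relative on the same receptor, had 5.15, 1.80, 1.43 and 3.79 CPM and 0 counts in M0, so with the M0 group set at the floor of 3 counts it was at least 82.0-fold higher. Both chemokines were above M0 in every stimulated co-culture library and far below the 1192 CPM of CXCL9 and 261 CPM of CXCL10 under stimulation alone. IDO1, which breaks down tryptophan, kept the same order, with 21.0, 10.7, 11.1 and 8.46 CPM in stimulated co-culture against 0.0498, 0.0501, 0.210 and 0.0484 CPM in M0 and a mean of 424 CPM under stimulation alone.

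The 3 IFN-γ response genes that were lower than in M0 were WARS1, ICAM1 and TBX21, named here after their values were seen. WARS1, a tRNA synthetase induced by IFN-γ, had 275, 224, 224 and 221 CPM in stimulated co-culture against 467, 442, 442 and 452 CPM in M0, although it averaged 1798 CPM under stimulation alone. ICAM1, an adhesion molecule, averaged 472 CPM against 658 CPM, a log2 fold change of -0.48, which was -0.27 and not called with library totals. TBX21, the transcription factor T-bet, had 1 count over the stimulated co-culture libraries and 1025 over the M0 libraries. The M0 level of TBX21 was 1133 times that of stimulated co-culture, with an exact 95% counting interval of 203 to 44796.

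Type I interferon-stimulated genes stayed high. All 31 tested were higher in stimulated co-culture than in M0, with a median log2 fold change of 4.08, and of the 31 raised by stimulation alone 30 stayed at least 2-fold above M0. Without its replicate 4, 28 were raised and 27 of them stayed. DESeq2 called 24 of the 31 higher and gave the other 7 no adjusted p. OAS2, an enzyme that detects double-stranded RNA, had 272, 213, 222 and 176 CPM against 3.39, 3.91, 3.35 and 3.68 CPM, a log2 fold change of 5.95 ± 0.640 (adjusted p = 1.61e-06). ISG15, a ubiquitin-like protein, had 47.0, 39.9, 39.1 and 30.8 CPM against 2.89, 3.61, 3.69 and 4.11 CPM, a log2 fold change of 3.45 ± 0.847 (adjusted p = 0.00224). Neither gene's libraries overlapped with M0. Under stimulation alone ISG15 had 13.4, 15.6, 13.9 and 184 CPM, so stimulated co-culture exceeded 3 of these 4 libraries and only the replicate that stood apart was higher. SAMD9L and EPSTI1, both induced by interferon, had log2 fold changes over M0 of 4.38 and 4.14.

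Antigen presentation genes were higher too. Of 12 tested MHC class II genes 10 were higher in stimulated co-culture and 0 lower, with a median log2 fold change of 4.13, and 9 of the 11 that stimulation alone raised stayed induced, or 11 of 11 without its replicate 4. HLA-DRB1, the beta chain of HLA-DR, had 169.7, 145, 152 and 176 CPM against 5.33, 4.81, 4.61 and 5.95 CPM, a log2 fold change of 4.96 ± 0.383. The invariant chain gene CD74, which guides class II molecules through the cell, averaged 212 CPM against 13.7 CPM. HLA-DRA, the alpha chain, had 15.3, 9.43, 8.74 and 15.5 CPM against 0, 0.1, 0.0839 and 0 CPM, a call that limma-voom did not make (adjusted p = 0.104). The 2 class II genes not called were HLA-DPA1 and HLA-DPB1, at means of 1.52 and 0.457 CPM in stimulated co-culture against 0.0698 and 0.0335 CPM. Without replicate 4 of stimulation alone both were called higher, with adjusted p of 1.88e-08 for HLA-DPA1 and 7.49e-05 for HLA-DPB1, and leaving out any other library of that group called HLA-DPA1 (0.0400 to 0.0473), as did library totals (0.0444) and the fit of 8 libraries (9.07e-07). Of 20 MHC class I and peptide-processing genes 19 were higher and 0 lower, with a median of 1.42. NLRC5, the activator of class I genes, had 249, 215, 226 and 264 CPM against 74.0, 68.6, 64.0 and 69.2 CPM, and the immunoproteasome subunit PSMB9 rose by 3.07 on the log2 scale. HLA genes are related in sequence, so the values of single HLA genes are uncertain.

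**Figure D3:**
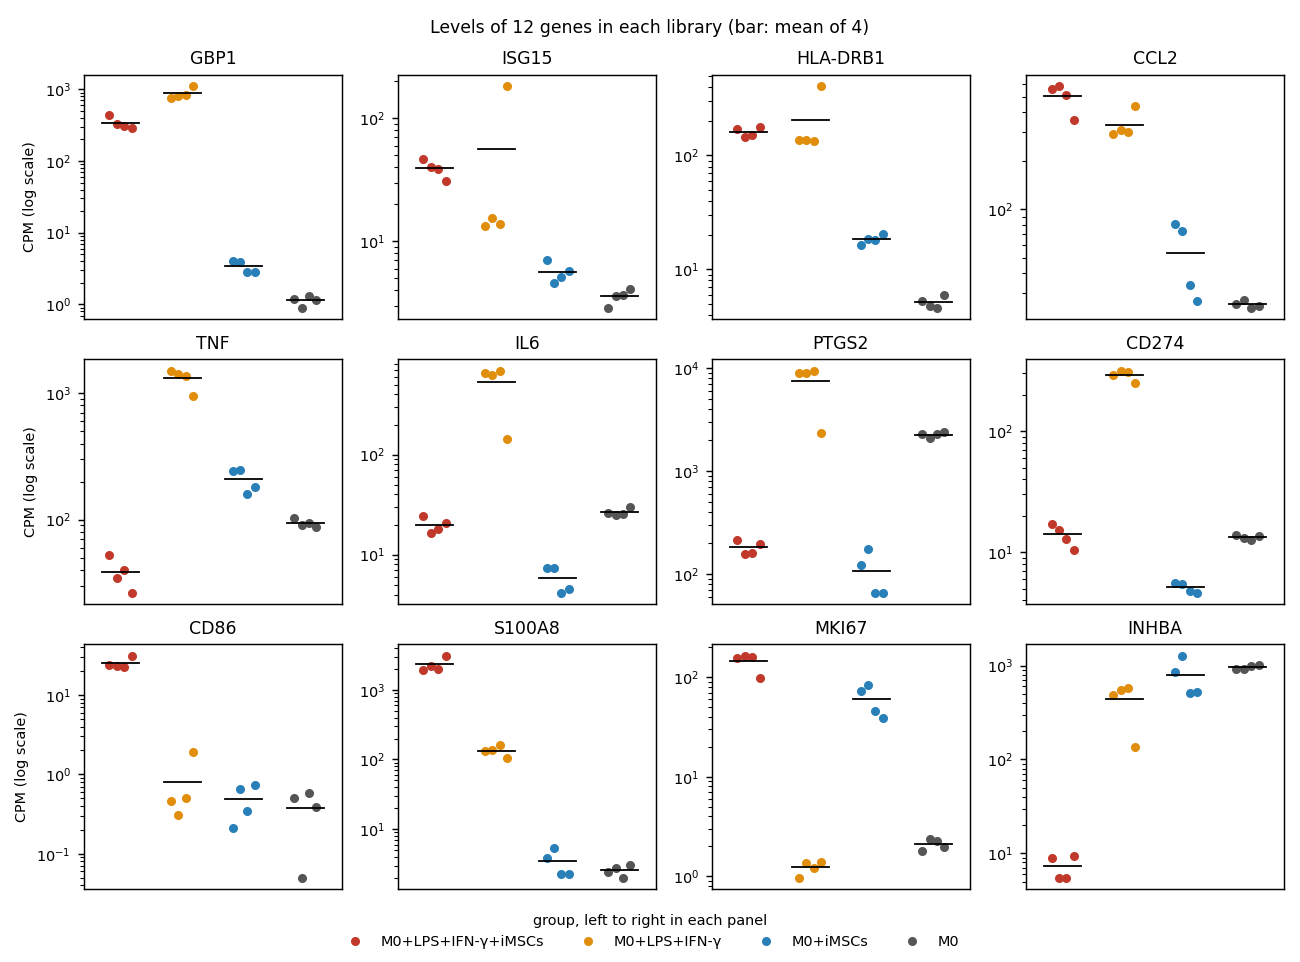
CPM of 12 genes on log axes in each library, with groups in the order M0+LPS+IFN-γ+iMSCs, M0+LPS+IFN-γ, M0+iMSCs and M0, a point for each library and a bar for the mean of 4. GBP1, ISG15, HLA-DRB1 and CCL2 stay far above M0 in M0+LPS+IFN-γ+iMSCs. TNF and PTGS2 fall below M0, CD274 and IL6 lie near it, CD86, S100A8 and MKI67 are highest there, and INHBA is lowest there.

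Promoter sequences of 6 genes that stand for the different outcomes are shown, because the interferon and NF-kB pathways named above act through short DNA motifs. GBP1, ISG15 and CXCL10 stayed induced, IRF1 stayed above M0 by less than 2-fold, CD274 returned and IL6 was undetermined. Each is the 250 bases before the RefSeq gene start on GRCh38.p14, read 5′ to 3′ on the gene's strand, and capitals mark matches to 3 motifs searched on both strands. The motif of the gamma-activated sequence (GAS) was TTCNNNGAA. That of the interferon-stimulated response element (ISRE) was GAAA and GAAA with any 2 bases between them, and that of an NF-kB site was GGGA and TTTCC with any base between them. The windows are chr1:89065209-89065458 on the minus strand for GBP1, chr1:1013247-1013496 on the plus strand for ISG15 and chr4:76023498-76023747 on the minus strand for CXCL10. For the other 3 they are chr5:132490774-132491023 on the minus strand for IRF1, chr9:5450292-5450541 on the plus strand for CD274 and chr7:22726950-22727199 on the plus strand for IL6.
GBP1: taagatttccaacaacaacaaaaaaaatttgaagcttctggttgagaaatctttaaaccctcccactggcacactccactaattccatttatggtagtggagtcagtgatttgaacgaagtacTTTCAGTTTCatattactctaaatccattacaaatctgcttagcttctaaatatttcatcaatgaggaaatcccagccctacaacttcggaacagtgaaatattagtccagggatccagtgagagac
ISG15: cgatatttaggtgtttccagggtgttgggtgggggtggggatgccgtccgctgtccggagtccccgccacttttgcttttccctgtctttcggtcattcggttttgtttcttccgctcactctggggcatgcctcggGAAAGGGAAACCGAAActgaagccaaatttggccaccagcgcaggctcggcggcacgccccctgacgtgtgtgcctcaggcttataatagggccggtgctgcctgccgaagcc
CXCL10: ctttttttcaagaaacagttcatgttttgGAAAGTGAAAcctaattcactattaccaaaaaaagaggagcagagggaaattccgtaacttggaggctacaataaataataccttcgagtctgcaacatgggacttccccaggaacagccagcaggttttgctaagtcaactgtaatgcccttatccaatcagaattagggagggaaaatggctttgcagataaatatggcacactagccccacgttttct
IRF1: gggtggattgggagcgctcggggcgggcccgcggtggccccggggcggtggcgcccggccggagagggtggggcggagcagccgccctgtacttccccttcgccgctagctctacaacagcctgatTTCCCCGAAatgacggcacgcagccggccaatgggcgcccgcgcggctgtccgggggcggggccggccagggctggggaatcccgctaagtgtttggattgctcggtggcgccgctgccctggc
CD274: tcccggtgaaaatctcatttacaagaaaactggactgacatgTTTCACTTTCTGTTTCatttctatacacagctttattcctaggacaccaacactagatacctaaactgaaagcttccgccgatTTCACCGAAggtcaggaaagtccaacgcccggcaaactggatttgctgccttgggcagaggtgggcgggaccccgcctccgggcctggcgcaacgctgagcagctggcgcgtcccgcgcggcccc
IL6: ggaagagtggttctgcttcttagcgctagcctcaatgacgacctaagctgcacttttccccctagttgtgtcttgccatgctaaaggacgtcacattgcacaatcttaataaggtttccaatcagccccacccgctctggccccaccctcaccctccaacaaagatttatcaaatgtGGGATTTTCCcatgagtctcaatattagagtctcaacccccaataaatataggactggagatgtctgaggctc
GBP1 and CXCL10 hold 1 ISRE match each, ISG15 holds 2 overlapping ones, IRF1 holds 1 GAS match, IL6 holds 1 NF-kB match, and CD274 holds 2 overlapping ISRE matches and 1 GAS match. The returned gene CD274 carries letters that also occur in the persistent genes. Its promoter was the 1 with an ISRE match among the 54 found for returned genes, so it does not stand for that class. An ISRE match was present in 8.83% of the 555 promoters found for genes that stayed induced, 1.85% of 54 for returned genes and 3.01% of 133 for overshooting genes, beside 3.02% of all 35116 promoters. A GAS match was present in 8.47%, 9.26% and 8.27% of the same classes and 6.57% of all promoters, and an NF-kB match in 2.16%, 3.70% and 1.5% beside 0.527%. A match describes letters and is not a binding site shown in these cells.

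Sensors of microbes and complement genes were mostly higher. Of 17 Toll-like receptor and LPS-sensing genes 10 were higher and 3 lower, beside 39.6% and 37.8% of all genes tested. Their median log2 fold change was 1.13. TLR8, an endosomal receptor for single-stranded RNA, had 107, 97.5, 101 and 89.4 CPM in stimulated co-culture against 0.0498, 0, 0.168 and 0.0968 CPM in M0, with a mean of 19.3 CPM under stimulation alone. NOD2, the receptor for bacterial muramyl dipeptide, had 28.0, 27.7, 27.1 and 26.0 CPM against 0.349, 0.0501, 0.881 and 0.532 CPM. Both were close to absent at rest and present in every stimulated co-culture library. The LPS receptor TLR4 averaged 128 CPM against 28.7 CPM, while LY96, the gene of its partner MD-2, was not called at 12.0 against 12.4 CPM. The 3 lower genes were the adaptors TRAF6 and TICAM1 and the lipoprotein receptor TLR2, with log2 fold changes of -1.15, -0.46 and -0.41. TLR2 was not called without any 1 M0 library or without replicate 2, 3 or 4 of stimulated co-culture (adjusted p = 0.0541 to 0.0901), nor with library totals, where the log2 fold change was -0.20. Upper-quartile scaling (adjusted p = 0.0563) and no filter (0.0888) did not call TLR2 either. All 9 complement genes that stimulation alone raised stayed induced, or 8 of 8 without its replicate 4, and 14 of 17 tested were higher with a median of 4.6. DESeq2 called 9 of these 14 and gave the other 5 no adjusted p. C1S, a protease of the classical pathway, had 37.8, 26.7, 24.1 and 36.1 CPM against 0.249, 0, 0.294 and 0.242 CPM. C3, the central complement component, had 1788, 1741, 1799 and 1881 CPM against 659.8, 640.2, 608 and 601 CPM, and its mean under stimulation alone was 581 CPM. The 3 lower complement genes were the receptor C5AR1 and the protective membrane proteins CD55 and CD59.

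Inflammasome genes were mostly higher, while IL1B, whose product they process, fell. Of 15 tested 13 were higher and 2 lower, and their median log2 fold change was 1.82. The protease CASP1 averaged 163 CPM against 6.14 CPM, the pore-forming GSDMD had 49.9, 47.6, 47.7 and 57.1 CPM against 15.6, 14.0, 14.3 and 13.4 CPM, and the cytokine IL18 had 22.0, 22.7, 21.0 and 20.3 CPM against 4.13, 4.51, 4.11 and 4.6 CPM. The 2 lower ones were NLRP3, a sensor, at 101 against 224 CPM on average, and IL1B. IL1B had 8304, 6570.0, 7179.6 and 8126 CPM in stimulated co-culture against 26175, 25612, 26191 and 27237 CPM in M0, a log2 fold change of -1.80 ± 0.113 (adjusted p = 1.35e-10), while it averaged 46636 CPM under stimulation alone. IL1RN, the natural antagonist of IL-1, also fell, with 273, 221, 257 and 343 CPM against 3037, 3049.8, 2895 and 2973 CPM.

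Several inflammatory cytokines passed below the resting level. Of 26 tested cytokine and growth factor genes 7 were higher and 15 lower, with a median log2 fold change of -1.34. Stimulation alone had raised 14 of them, of which 5 stayed induced, 2 returned, 6 overshot and 1 was undetermined. Without its replicate 4, 13 were raised, of which 5 stayed, 1 returned and 7 overshot. TNF had 52.8, 34.4, 39.7 and 26.5 CPM in stimulated co-culture against 103, 90.6, 93.3 and 86.9 CPM in M0 and a mean of 1308 CPM under stimulation alone. All 4 libraries lay below all M0 libraries, with a log2 fold change of -1.29 ± 0.204 (adjusted p = 4.3e-05). CSF3, the granulocyte growth factor, had 2.30, 1.31, 1.46 and 1.90 CPM against 14.7, 13.7, 14.8 and 15.3 CPM and averaged 184 CPM under stimulation alone. The other overshooting members were CSF2, EREG, IL36G and IL1A, with log2 fold changes from -2.69 to -1.39, of which limma-voom did not call CSF2 and IL36G (adjusted p = 0.159 and 0.143).

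IL6 was undetermined. It had 24.3, 16.3, 18.2 and 20.5 CPM in stimulated co-culture against 26.3, 25.1, 25.2 and 30.3 CPM in M0, and averaged 532 CPM under stimulation alone. The libraries did not overlap, yet the log2 fold change of -0.43 had a 95% interval of -1.27 to 0.41 and an adjusted p of 0.323. In a fit of the 8 libraries compared it was -0.45 with an adjusted p of 0.0021, and without replicate 4 of stimulation alone -0.44 with 0.0129. IL10, an anti-inflammatory cytokine, had 2.21, 1.43, 1.73 and 1.61 CPM against 1.59, 1.25, 1.30 and 0.871 CPM and was not called (log2 fold change 0.47, adjusted p = 0.0964), although library totals gave 0.68 with an adjusted p of 0.02 and the fit of 8 libraries 0.46 with 0.0431. Cytokines that stayed induced were IL23A, EBI3, TNFSF13B, IL32 and TNFSF10, of which limma-voom did not call IL23A (adjusted p = 0.0592). EBI3, a subunit of IL-27 and IL-35, had 57.4, 55.4, 58.5 and 46.9 CPM against 11.2, 11.2, 10.4 and 9.83 CPM.

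Chemokines moved in both directions. Of 20 tested 14 were higher and 5 lower, with a median log2 fold change of 2.15. Among the 14 raised by stimulation alone 8 stayed induced, or 7 of 12 without its replicate 4, near the 60.7% of all 1406 raised genes. CCL2, which attracts monocytes, had 562, 586, 512 and 358 CPM in stimulated co-culture against 25.6, 27.1, 24.4 and 25.2 CPM in M0, a log2 fold change of 4.30 ± 0.345 (adjusted p = 6.38e-08). CCL8, another monocyte chemokine, had 81.2, 46.7, 46.6 and 41.1 CPM against 0.199, 0.1, 0.0419 and 0.339 CPM. CXCL8, which attracts neutrophils, had 15681, 13732, 13423 and 14775 CPM against 40044, 41831, 42841 and 43440.3 CPM, a log2 fold change of -1.55 ± 0.0893 (adjusted p = 4.74e-11). CXCL8 took 1.54% to 1.77% of all counts in stimulated co-culture and 3.95% to 4.25% in M0. Both monocyte chemokines were above and CXCL8 below M0 in every library. CXCL2 and CXCL3 overshot as CXCL8 did, with log2 fold changes of -1.2 and -1.28, while their relatives CXCL1, CXCL5 and CXCL6 stayed above M0 at 1.13, 2.25 and 0.80. CCL3 and CCL20, chemokines for monocytes and lymphocytes, were lower too, at -1.86 and -1.62. CXCL1 to CXCL3 are close paralogs, so the split between them is uncertain.

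PTGS2, the inducible cyclooxygenase of prostaglandin synthesis, had 211, 158, 158 and 197 CPM in stimulated co-culture against 2282, 2123, 2289.9 and 2384 CPM in M0, a log2 fold change of -3.65 ± 0.435 (adjusted p = 4.14e-06). Its mean under stimulation alone was 7456 CPM, so it passed well below the resting level. Downstream synthases moved the other way. PTGES, the inducible prostaglandin E synthase, averaged 86.5 CPM against 11.0 CPM, and TBXAS1, thromboxane synthase, had 53.2, 57.6, 51.9 and 64.4 CPM against 6.92, 7.06, 6.63 and 5.86 CPM. ALOX5AP, which hands arachidonic acid to 5-lipoxygenase, had 754, 819.6, 797 and 843 CPM against 32.4, 30.7, 30.7 and 35.6 CPM. ALOX5, the lipoxygenase itself, had 280.3, 271, 281 and 258 CPM against 7.62, 7.66, 7.88 and 8.76 CPM, and LTA4H, which makes leukotriene B4, rose by 1.11 on the log2 scale. Across the pathway 8 of 14 genes were higher and 4 lower, beside 39.6% and 37.8% of all genes tested. The lower ones were PTGER3, PTGS2, PTGS1 and PTGER4. PTGER4, at -0.23, was not called without M0 replicate 2 or replicate 3 or 4 of stimulated co-culture, where it was -0.22 to -0.21, or with library totals, where it was -0.02. Upper-quartile scaling, at -0.19, did not call PTGER4 either (adjusted p = 0.0517).

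Markers of the M1 state were divided, and those raised by stimulation alone split much as all raised genes did. Of 19 tested 13 were higher and 5 lower than in M0, with a median log2 fold change of 1.02, and of 15 raised by stimulation alone 9 stayed induced, 2 were above M0 by less than 2-fold, 3 overshot and 1 was undetermined. Without its replicate 4 the 15 divided into 9, 2, 4 and 0. Over all 1406 raised genes 60.7% stayed induced, 10.6% were above M0 by less than 2-fold, 14.8% overshot and 6.83% were undetermined. The 5 lower ones were INHBA, PTGS2, IL1B, CCR7 and TNF, secreted mediators, an enzyme and a chemokine receptor. The 9 that stayed include CXCL9, CXCL10, IDO1, the co-stimulator CD80 and the transcription factor IRF5, which had 111, 111, 114 and 117 CPM against 40.7, 43.0, 43.1 and 41.2 CPM. Lists share members, so these counts repeat genes given above.

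**Figure D4:**
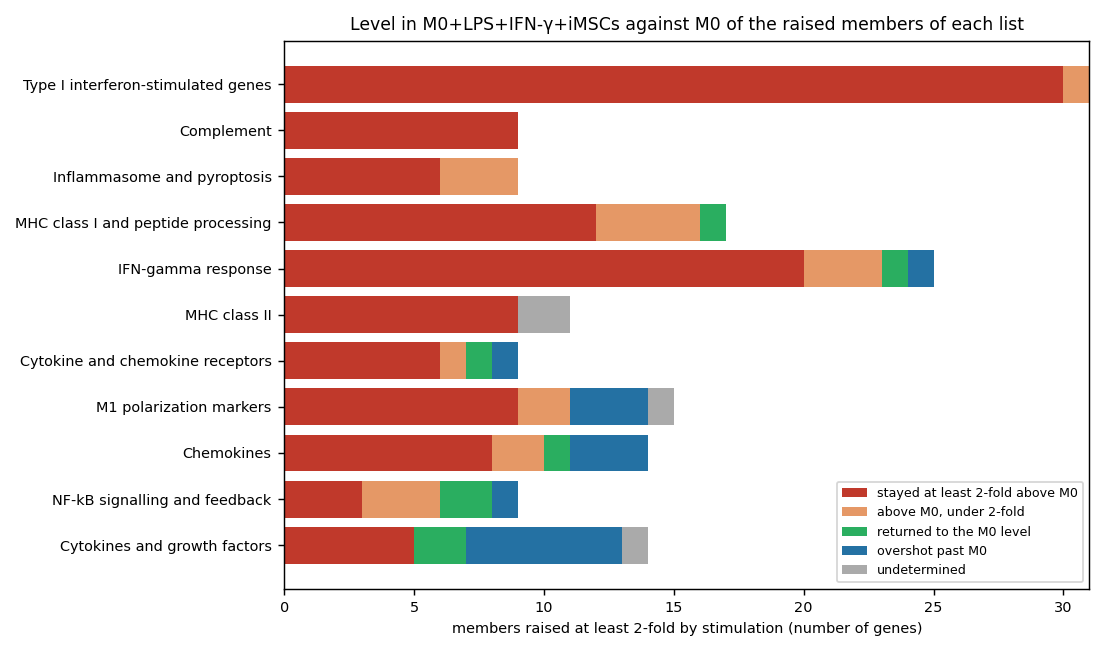
Number of members that stimulation alone raised at least 2-fold, for the 11 lists with at least 9 of them, coloured by their level in M0+LPS+IFN-γ+iMSCs against M0. Type I interferon-stimulated and complement genes all stayed above M0, while 6 of 14 cytokine genes overshot below it, or 7 of 13 without replicate 4 of M0+LPS+IFN-γ.

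NF-kB regulators were divided, and immediate early genes were mostly below the resting level. Of 25 NF-kB signalling and feedback genes 10 were higher and 12 lower, with a median log2 fold change of -0.08. That is not far from the 39.6% higher and 37.8% lower of all genes tested. IRAK3, an inhibitor of Toll-like receptor signalling, had 159.6, 153, 152 and 176 CPM in stimulated co-culture against 32, 31.6, 33.9 and 31.8 CPM in M0. IRAK2, a kinase of the same family that carries the signal forward, had 26.3, 20.7, 21.3 and 19.7 CPM against 185, 193, 190.1 and 189 CPM. BIRC3, a ubiquitin ligase of the pathway and its target, had 8.82, 8.04, 7.36 and 5.84 CPM against 66.2, 68.4, 72.0 and 67.9 CPM. The inhibitor was high and the forward kinase low in every stimulated co-culture library, and neither had moved by 2-fold under stimulation alone. TNFAIP3, a feedback inhibitor, rose by 1.36 on the log2 scale, and the subunits NFKB1 and RELA fell by 0.48 and 0.61. Of 27 immediate early and stress kinase feedback genes 22 were lower, with a median of -1.31, and the 2 higher ones were FOS and ZFP36. ZFP36 was not called without M0 replicate 3 or 4 or replicate 1 of stimulated co-culture, where its log2 fold change was 0.22 to 0.29. EGR2, a zinc finger factor, had 14.7, 9.19, 11.4 and 13.9 CPM against 433, 420.5, 441 and 427 CPM. FOS had 330.3, 286, 289 and 352 CPM against 75.1, 76.0, 76.5 and 78.1 CPM.

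By the definition used, 100 of 1406 raised genes returned to the M0 level. It asks that a gene not be called, where 77.4% of all genes tested were, so the class also depends on precision. Another 149 raised genes were called above M0 by less than 2-fold, and of 208 that overshot 158 were at least 2-fold below it. CD274, the gene of PD-L1, a ligand that restrains T cells, had 17.3, 15.4, 13.0 and 10.5 CPM in stimulated co-culture against 13.9, 13.1, 12.7 and 13.7 CPM in M0, and averaged 291 CPM under stimulation alone. The groups overlapped, and the log2 fold change of 0.07 had a 95% interval of -0.18 to 0.32 (adjusted p = 0.578), although library totals gave 0.29 with an adjusted p of 0.0374. EHD1, an endocytic recycling protein, had 155, 141, 158 and 109 CPM against 142, 135, 134 and 136 CPM, with a mean of 588 CPM under stimulation alone. The NF-kB target TNFAIP2 and ZFYVE28 also returned from large rises, at log2 fold changes of 0.18 and -0.14. TNFAIP2 was called with library totals, at 0.39, in the fit of 8 libraries, at 0.17, and without replicate 4 of stimulation alone, at 0.18. PDCD1LG2, the second PD-1 ligand, did not return, with 13.8, 12.5, 12.1 and 12.3 CPM against 3.24, 2.85, 2.81 and 3.29 CPM.

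Overshoot of raised genes reached beyond cytokines. MMP3, a matrix metalloproteinase, had 0.965, 0.857, 0.976 and 0.876 CPM in stimulated co-culture against 117, 129, 119.6 and 119 CPM in M0, and averaged 573 CPM under stimulation alone. BMP8A, a growth factor of the TGF-β family, had 1.61, 1.51, 1.69 and 1.17 CPM against 15.3, 16.5, 17.1 and 15.0 CPM, and GNG11, a G protein subunit, had 3.77, 3.39, 4.17 and 2.33 CPM against 28.4, 28.5, 32.5 and 33.5 CPM. SERPINB7, a protease inhibitor, had 10.2, 7.76, 7.58 and 4.23 CPM against 19.0, 16.1, 19.3 and 20.1 CPM, with a mean of 677 CPM under stimulation alone. Its log2 fold change of -1.32 (adjusted p = 0.0307) was lost in 8 of the alternatives, where the adjusted p was 0.0524 to 0.0996. They were library totals, no filter, limma-voom and leaving out M0 replicate 3 or 4 or replicate 2, 3 or 4 of stimulated co-culture.

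Genes that stimulation had lowered showed all 3 outcomes as well. TNFSF15, a cytokine of the TNF family, had 26.0, 20.2, 19.5 and 21.6 CPM in stimulated co-culture against 900.3, 926, 899.6 and 911 CPM in M0, below its mean of 71.7 CPM under stimulation alone. TNFRSF10D, a decoy receptor for TRAIL, had 12.4, 11.3, 13.0 and 14.0 CPM against 408, 411, 383 and 396 CPM. Both stayed lowered, as did PSAT1, TM6SF1 and MYH14 at log2 fold changes of -2.75, -2.47 and -1.83. VASH1, an inhibitor of vessel growth, had 113, 116, 120.0 and 114 CPM against 51.7, 55.8, 53.2 and 51.7 CPM, with a mean of 9.88 CPM under stimulation alone. ADD3, a protein of the membrane skeleton, had 27.8, 26.5, 23.3 and 28.4 CPM against 8.71, 8.87, 8.60 and 7.84 CPM, and TRHDE, SLC9A7P1 and SPOCK1 were the other 3 leading genes called above M0, at 1.32, 0.90 and 0.82. ITGA6, a laminin receptor subunit, had 417, 437, 403 and 432 CPM against 401, 457, 419.6 and 405 CPM, where stimulation alone had left 80.4 CPM. The groups overlapped, and the log2 fold change was 0.01 with a 95% interval of -0.13 to 0.14 (adjusted p = 0.94), or 0.22 and called with library totals. COL8A2, UCK2, PLXDC2 and PGBD5 were the other 4 that returned, at -0.02, -0.14, 0.36 and -0.45. PGBD5, PLXDC2 and UCK2 were called in the fit of 8 libraries and without replicate 4 of stimulation alone. PLXDC2 was also called with library totals, at 0.57, and PGBD5 by limma-voom (adjusted p = 0.0161) and without replicate 1 of co-culture alone (0.0443).

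A further set of genes differed from M0 in stimulated co-culture without a 2-fold change under stimulation alone. CD86, the co-stimulatory ligand used as an M1 marker, had 23.9, 23.3, 22.2 and 31.4 CPM in stimulated co-culture against 0.498, 0.0501, 0.587 and 0.387 CPM in M0, a log2 fold change of 6.00 ± 0.418 (adjusted p = 3.16e-09), and under stimulation alone 0.311 to 0.502 CPM in 3 libraries and 1.90 CPM in replicate 4. CX3CR1, the fractalkine receptor, had 16.0, 16.9, 19.0 and 14.8 CPM against 0.448, 0.250, 0.335 and 0.242 CPM. CCR2, the receptor for CCL2 on classical monocytes, had 1424 counts over the stimulated co-culture libraries and 2 over the M0 libraries, a ratio of 644 with an exact 95% counting interval of 178 to 5324. All 3 were near 0 at rest. IL6R, the receptor of IL-6, and TNFRSF11A, the receptor RANK, were lower, with 65.5, 62.0, 62.4 and 67.3 CPM against 344, 345, 339.9 and 349 CPM for IL6R and 3.40, 3.59, 3.34 and 3.65 CPM against 31.7, 29.8, 31.3 and 26.2 CPM for TNFRSF11A. Across 31 receptor genes 19 were higher and 9 lower, beside 39.6% and 37.8% of all genes tested, with a median of 0.66. The IFN-γ receptor genes IFNGR1 and IFNGR2 were among the higher ones, at 1.69 and 1.24.

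Cell cycle genes were higher in stimulated co-culture than in resting macrophages. Of 31 tested 28 were higher, with a median log2 fold change of 2.49, beside a median of 1.43 in co-culture alone and -0.34 under stimulation alone. TOP2A, the topoisomerase of dividing cells, had 94.3, 105, 89.8 and 59.9 CPM against 0.598, 0.851, 0.964 and 0.775 CPM, and the mitotic checkpoint kinase gene BUB1B had 21.1, 26.6, 22.1 and 14.3 CPM against 0.398, 0.351, 0.419 and 0.387 CPM. The 3 lower genes were CDKN1A, CCND1 and CCND2. CDKN1A, which encodes the cell cycle inhibitor p21, had 214, 169, 197 and 214 CPM against 1507, 1407, 1423 and 1464 CPM, a log2 fold change of -2.87 ± 0.0753 (adjusted p = 1.96e-15). Of 16 genes of immature myeloid cells and granules 14 were higher and 1, GFI1, lower, with a median of 1.74. S100A12 had 128, 136, 127 and 196 CPM against 0.448, 0.351, 0.503 and 0.532 CPM, and the granule protein gene RNASE3 rose by 4.63 on the log2 scale. Replicate 4 of stimulated co-culture was the lowest of its group for MKI67, TOP2A and BUB1B and the highest for S100A8, S100A9 and S100A12. S100A genes are related in sequence and their values are uncertain to that extent.

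Of 18 macrophage and myeloid markers 10 were higher and 6 lower, beside 39.6% and 37.8% of all genes tested. Their median log2 fold change was 0.99. AIF1, an actin-bundling protein of macrophages, had 127, 132, 130.2 and 126 CPM in stimulated co-culture against 18.6, 15.6, 16.9 and 20.0 CPM in M0, and ITGAX, the integrin chain CD11c, had 149.9, 124, 146 and 178 CPM against 536, 514, 507 and 497 CPM. Scavenger, C-type lectin and Fc receptors were mostly higher. Of 20 such genes 17 were higher and 1, MSR1, lower, or 2 lower in the fit of 8 libraries and without replicate 4 of stimulation alone, with a median log2 fold change of 1.98. CLEC4E, the receptor Mincle, had 36.7, 35.8, 32.8 and 35.6 CPM in stimulated co-culture against 0.0996, 0.301, 0.377 and 0.339 CPM in M0, and CLEC5A had 218, 180.0, 196 and 183 CPM against 16.1, 13.6, 15.3 and 16.2 CPM. MARCO, a scavenger receptor for bacteria, had 1.42, 1.35, 1.2 and 1.17 CPM against 0.398, 0.250, 0.335 and 0.387 CPM. Of 15 M2 markers 9 were higher and 4 lower, with a median of 1.23, and of the 9 DESeq2 called 5 and gave 3 no adjusted p. CD209, the lectin DC-SIGN, had 52.8, 42.5, 47.1 and 51.2 CPM against 10.7, 9.97, 11.7 and 10.8 CPM. CD163, the haemoglobin scavenger receptor, had 87.9, 78.6, 83.8 and 43.9 CPM against 30.8, 32.6, 31.1 and 30.7 CPM and was not called (log2 fold change 1.23, adjusted p = 0.12). Under stimulation alone CD163 had 252 CPM in replicate 4, beside 22.5 to 26.1 CPM in the other 3 libraries. Without that library the adjusted p against M0 was 7.3e-05, at a log2 fold change of 1.23. In the fit of 8 libraries CD163 was also called, at 1.22 (adjusted p = 0.00148). The 4 lower M2 markers were MSR1, TGM2, FN1 and TGFB1, and the fall of FN1, at -0.58, was not called with library totals, where it was -0.36 with an adjusted p of 0.0685.

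Co-stimulation and checkpoint ligands were divided, 8 of 16 higher and 5 lower with a median log2 fold change of 0.19. Over all genes tested 39.6% were higher and 37.8% lower. VSIR, the checkpoint protein VISTA, had 214, 206, 213 and 262 CPM in stimulated co-culture against 45.0, 42.7, 38.3 and 41.5 CPM in M0, and CD80 had 7.53, 4.98, 6.23 and 4.47 CPM against 0.299, 0.250, 0.252 and 0.0484 CPM. CD40 was higher by less than 2-fold, with 34.7, 30.4, 32.5 and 35.8 CPM against 21.5, 19.8, 20.9 and 20.2 CPM. The ligands CD58, CD276, PVR, TNFSF9 and ICAM1 were lower, at log2 fold changes from -0.87 to -0.47.

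Matrix-degrading genes were mostly lower. Of 20 metalloproteinase, plasminogen and inhibitor genes 4 were higher and 13 lower, beside 39.6% and 37.8% of all genes tested. Their median log2 fold change was -1.76. MMP1, the interstitial collagenase, had 9.88, 8.78, 8.26 and 10.1 CPM in stimulated co-culture against 1012, 1034, 1003 and 1033 CPM in M0, while its mean under stimulation alone was 1565 CPM. TIMP1, an inhibitor of metalloproteinases, had 385, 363, 393 and 411 CPM against 3010.1, 2957, 2788 and 2742 CPM. MMP9, a gelatinase, had 1229, 1171, 1285 and 989.8 CPM against 947, 902, 922 and 893 CPM and was not called (0.35, adjusted p = 0.114). Library totals, at 0.57, the fit of 8 libraries, at 0.34, and leaving out replicate 4 of stimulation alone, at 0.35, did call MMP9 higher. The 4 higher genes were TIMP2, MMP25, PLAT and MMP2.

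Osteoclast genes matter to bone loss, which the series title names. Of 17 tested 6 were higher and 8 lower, with a median log2 fold change of -0.06. Over all genes tested 39.6% were higher and 37.8% lower. CA2, the carbonic anhydrase that supplies acid for resorption, had 4.04, 4.41, 4.24 and 5.06 CPM in stimulated co-culture against 186, 201, 193 and 194 CPM in M0, and DCSTAMP, the fusion partner of OCSTAMP, had 43.6, 34.3, 41.5 and 44.5 CPM against 292, 275, 279.8 and 294 CPM. CSF1, the macrophage growth factor needed by osteoclast precursors, had 19.8, 11.8, 16.5 and 14.7 CPM against 1379.8, 1378, 1276 and 1262 CPM. The 6 higher members were FOS, OSCAR, CTSK, NFATC1, SRC and TCIRG1, and ACP5 and CSF1R were not called. CSF1R, at 0.37, was called without replicate 4 of stimulation alone (adjusted p = 3.78e-05). The fit of 8 libraries (1.45e-07) and library totals (0.00834) called it too.

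**Figure D5:**
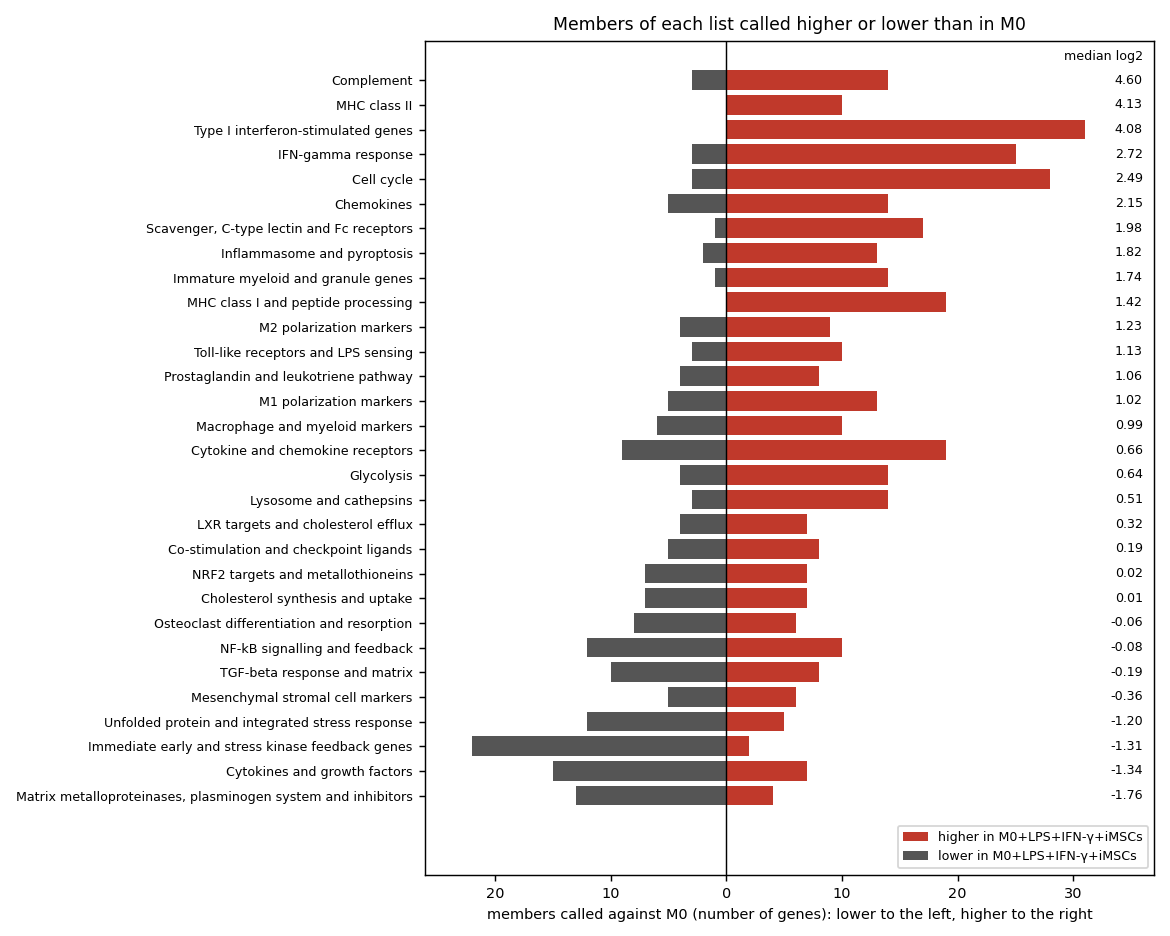
Number of members of each of the 30 lists with at least 10 tested genes that were called higher (bars to the right) or lower (bars to the left) in M0+LPS+IFN-γ+iMSCs than in M0, with each list's median log2 value printed at the right. Complement, MHC class II and type I interferon genes stand at the top, and cytokines and metalloproteinases at the bottom.

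Matrix and TGF-β response genes were mixed, 8 of 21 higher and 10 lower with a median log2 fold change of -0.19. This split is not far from that of all genes tested, 39.6% higher and 37.8% lower. VCAN, a matrix proteoglycan of monocytes, had 34.1, 37.6, 38.0 and 89.1 CPM in stimulated co-culture against 0.448, 0.701, 0.545 and 0.581 CPM in M0, while the signal transducers SMAD3 and SMAD7 fell by 1.84 and 1.90 on the log2 scale. Mesenchymal stromal markers were mixed as well, 6 of 15 higher and 5 lower with a median of -0.36, again near the shares over all genes. DCN, the proteoglycan decorin made by stromal cells, had 18.4, 20.9, 19.8 and 16.2 CPM and 0 counts in M0, at least 534-fold higher with M0 set at the floor of 3 counts. LUM, the related lumican, had 120 counts over the stimulated co-culture libraries and 1 over the M0 libraries, a ratio of 109 with an exact 95% counting interval of 19.1 to 4323. NT5E, which encodes CD73 of stromal and other cells, fell, with 119, 94.1, 109.9 and 121 CPM against 1268, 1252, 1289 and 1310.5 CPM. The part that RNA of the iMSCs had in these values was not tested.

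Metabolic and stress genes moved in both directions. Of 22 glycolysis genes 14 were higher and 4 lower, or 2 lower with library totals, beside 39.6% and 37.8% of all genes tested. Their median log2 fold change was 0.64. LDHA, lactate dehydrogenase, had 987, 1067, 1057 and 1058 CPM in stimulated co-culture against 354, 373, 343 and 362 CPM in M0, and PFKFB3, which drives glycolytic flux, had 242, 235, 235 and 210.4 CPM against 83.0, 81.5, 80.4 and 82.1 CPM. Of 18 unfolded protein and integrated stress response genes 5 were higher and 12 lower, with a median of -1.2. The 5 higher ones were the chaperone genes HSP90B1, PDIA4, SDF2L1, HSPA5 and DNAJC3. DNAJC3, at 0.19, was 0.18 and 0.16 and not called without M0 replicate 1 and without replicate 4 of stimulated co-culture. DESeq2, at 0.17, did not call DNAJC3 either (adjusted p = 0.0510). The lower ones include PPP1R15A, with 149, 132, 138 and 123 CPM against 785, 766, 778 and 792 CPM, the factor ATF4 at 193 against 540 CPM on average, and ASNS, PSAT1 and PHGDH of amino acid synthesis. Of 18 cholesterol synthesis and uptake genes 7 were higher and 7 lower, with a median of 0.01, and SQLE, an enzyme of the synthesis, had 275, 236, 263 and 248 CPM against 1507, 1530.0, 1478 and 1509.5 CPM. LXR target genes had 7 of 16 higher and 4 lower with a median of 0.32, and the fatty acid desaturase gene FADS2 had 67.7, 74.3, 76.0 and 84.5 CPM against 7.07, 7.11, 6.33 and 5.76 CPM. NRF2 targets and metallothioneins were divided, 7 of 17 higher and 7 lower with a median of 0.02. The splits of the cholesterol and NRF2 lists were near the 39.6% higher and 37.8% lower of all genes tested. The share of LXR target genes that were higher was also near that of all genes. Lysosome and cathepsin genes had 14 of 23 higher and 3 lower, or 5 lower in the fit of 8 libraries, with a median of 0.51, and the cathepsin gene CTSS had 1769, 1647, 1602 and 1745 CPM against 440.0, 472, 471 and 471 CPM.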

How the data were processed

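Per the labels' protocols, RNA of THP-1 macrophages went into VAHTS Universal V6 libraries. The authors deposited un-normalized whole-number counts for 60664 genes, 20055 of them with no symbol. The submitters' processing notes name HISAT2, HTSeq and GRCh38, giving neither roles nor versions, and GRCh38.p13 is the annotation's build per the file headers. Use of strand in counting and the handling of reads from related or overlapping genes are not given in the sources used here. Close paralogs, overlapping genes and antisense partners are therefore uncertain.

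Groups and replicates were taken from the labels. Counts of all 16 libraries entered 1 edgeR 4.0.16 quasi-likelihood fit in R 4.3.3 (filterByExpr, TMM, robust estimation, group means, no block, 12 residual degrees of freedom). P-values were adjusted by Benjamini-Hochberg over 15301 genes, with a threshold of 0.05. A SE is the log2 fold change over the square root of F and is approximate where a group has almost no counts. No 2 libraries agreed within sampling noise. Counting intervals of ratios and floors (3 counts over a group) cover counting error only. The 95% intervals of log2 fold changes are built from the SE and so include the spread between libraries. The alternatives were other scaling, filters, tools (DESeq2 1.42.0, limma-voom 3.58.1) and cutoffs, a replicate block, the 8 libraries alone, and leaving out each library. Promoters came from RefSeq on GRCh38.p14. The fit was tested on simulated data. Plots were made in python 3.11.15 (matplotlib 3.10.9).

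The members and the 31 gene lists were chosen with earlier results of these data known, and lists share genes. Named genes are the 8 largest rises and 8 largest falls with a mean log2 CPM of at least 3 and no overlap between groups. They also include the 5 with the largest change under stimulation in each class of net state, a marker panel, and up to 4 members of each list with the smallest p. Another 71 genes were named after their values were seen, among them TBX21, WARS1, CCR2, LUM, TOP2A, ALOX5, MMP1, CD14 and the members that make up counts of 6 or fewer. Some genes that the rules name are not reported here.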

Additional observations from a re-analysis of the deposited data

Results flagged for a closer look

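Of 400 gene and group combinations of the 200 genes named, 26 held a library that lay far from the other 3 of its group (Dixon's ratio above its 95% critical value). Chance alone flags about 1 in 20 groups.

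Replicate 4 of M0+LPS+IFN-γ+iMSCs gave 10 of the flags. It was high for VCAN, at 89.1 CPM beside 34.1 to 38.0 CPM in the other 3 libraries, and for CXCL5, at 2029.7 CPM beside 819.5 to 879 CPM. It was also high for S100A9 at 4328 CPM beside 2835 to 3032 CPM, S100A12 at 196 CPM beside 127 to 136 CPM, CXCL6 at 251 CPM beside 179 to 188 CPM and VSIR at 262 CPM beside 206 to 214 CPM. MYH14 stood at 5.30 CPM beside 3.51 to 3.72 CPM, TM6SF1 at 4.43 CPM beside 3.49 to 3.55 CPM and COL1A1 at 13.1 CPM beside 7.72 to 8.11 CPM. The library was low for MKI67, at 97.7 CPM beside 157 to 165 CPM. For each of these genes the other 3 libraries lay on the same side of M0 as replicate 4.

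Replicate 1 of the same group gave 8 flags, of which 7 were high. These were CXCL10 at 27 CPM beside 11.0 to 13.4 CPM, IRF1 at 125 CPM beside 97.0 to 98.4 CPM, CCL8 at 81.2 CPM beside 41.1 to 46.7 CPM and WARS1 at 275 CPM beside 221 to 224 CPM. The others were GBP3 at 64.6 CPM beside 49.5 to 52.1 CPM, TNFSF10 at 9.28 CPM beside 5.52 to 6.13 CPM and NFATC1 at 20.2 CPM beside 18.3 to 18.6 CPM. LDHA was low there, at 987 CPM beside 1057 to 1067 CPM.

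The M0 libraries gave 8 flags with small gaps. Replicate 1 was high for MDGA1 at 48.7 CPM, TBX21 at 12.8 CPM, SMAD3 at 29.7 CPM, CD14 at 132 CPM and ICAM1 at 701 CPM, and low for CTSS at 440.0 CPM. Replicate 2 was high for IL1A at 233 CPM, and replicate 4 for DUSP6 at 1587 CPM.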

How the results depend on the processing

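The 200 named genes were refitted under 25 or fewer alternatives each, 4983 values in all. Of these 4885 kept their direction and their side of the threshold, 35 lost their call and 39 gained one. Another 24 values, of 8 genes that were not called, changed sign without a call, and 0 called genes reversed. In 175 genes no alternative changed whether the gene was called. The genes that differed from M0 numbered 11533 to 12537 when single libraries were left out, 5903 to 6416 of them higher and 5603 to 6121 lower, 12610 with DESeq2 and 12065 in a fit of the 8 libraries compared. A minimum change of 2-fold left 5679, 3228 higher and 2451 lower. Leaving out single libraries gave 1353 to 1458 raised and 1242 to 1369 lowered genes. Of the raised, 743 to 898 stayed, 93 to 104 returned and 194 to 274 overshot, and of the lowered, 657 to 696 stayed, 165 to 174 returned and 160 to 266 overshot. Library totals alone lowered 1991 genes, with 326 returned and 460 overshooting, and of the raised genes 51 returned and 126 overshot. At a 4-fold change under stimulation 495 genes were raised (371 stayed, 14 returned, 50 overshot) and 305 lowered (207, 18 and 35). At 1.5-fold 2379 were raised (265 returned, 396 overshot) and 2388 lowered (383 and 438). Bounds of 1.5-fold for the classes left 51 raised and 82 lowered genes returned. For these counts the cause was not tested. Replicate numbers did not pair the libraries, with correlations of same-numbered deviations of -0.09, -0.03, -0.19 and -0.17. The replicate block called 11804 genes, 6052 higher and 5752 lower, and among the named genes it added calls for IL10 (adjusted p = 0.0354), PGBD5 (0.0249), HLA-DPA1 (0.00359) and HLA-DPB1 (0.0117). Depth limits the genes with few counts, for which the SE is approximate.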

Other observations

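Genes of growth factors, lipid handling and oxidative stress that the comparison named by its rules moved in both directions against M0. VEGFA, the vascular growth factor, had 722, 674, 676 and 832 CPM in M0+LPS+IFN-γ+iMSCs against 249, 238, 235 and 231 CPM in M0. NQO1, a quinone reductase, had 199, 205, 205 and 192 CPM against 54.9, 51.0, 53.5 and 54.7 CPM. GCLC, which limits glutathione synthesis, had 63.1, 68.8, 67.3 and 59.6 CPM against 288, 292, 289.6 and 289 CPM. NQO1 and GCLC, both targets of NRF2, thus stood on opposite sides of M0 in every library. LPL, which releases fatty acids from lipoproteins, had 109.5, 91.2, 113 and 115 CPM against 1064, 1124, 1085 and 1083 CPM, a log2 fold change of -3.34.

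CEBPB, a factor of myeloid and inflammatory genes, had 100.3, 95.6, 94.3 and 115 CPM in M0+LPS+IFN-γ+iMSCs against 258, 267, 259.6 and 240.2 CPM in M0. DUSP5 and DUSP6, phosphatases that switch ERK off and members of the immediate early list, had log2 fold changes of -5.26 and -1.49. DNMT3B, a DNA methyltransferase and the only pluripotency-associated gene with enough counts to test, was higher, at 2.76.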
